A study of Komagataella pastoris with 12 samples.

Results

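Translation factors are the proteins that carry ribosomes through initiation, elongation and termination. In eukaryotes eIF2 brings the initiator tRNA to the small ribosomal subunit as a complex with GTP, and eIF2B exchanges the GDP on eIF2 for GTP. The eIF4 factors recruit the mRNA, eIF3 binds the small subunit, and eIF1, eIF1A and eIF5 act in the choice of the start codon. EF-1 alpha then delivers aminoacyl tRNA to the elongating ribosome. Phosphorylation of the alpha subunit of eIF2 by the kinase Gcn2p is a known way in which yeast cells lower initiation under stress.

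The genes described here are the rows of the expression table whose description names a factor of translation initiation, elongation, termination or release, or an eIF or eEF, without tRNA, rRNA or ribosomal protein. The rule found 35 of the 5080 transcripts. A further description that matched, that of elongation factor 3, was left out because it holds the word tRNA. Of the 35 genes, 24 belong to cytosolic initiation, 3 to cytosolic elongation (eIF5A among them), 2 to termination and 4 to mitochondrial translation, and 2 encode regulators of eIF2. Groups of roles were made from the descriptions. All 35 genes passed the filter on low values, a mean of 1 FPKM.

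The strains were *Komagataella phaffii*, a methylotrophic yeast used for protein production. The labels give the species as *K. pastoris*. G14 is a thermotolerant isolate, labelled evolved, that was bred from the parent by mutagenesis and adaptive evolution with a stepwise rise in temperature, so it stands for 1 evolved clone. The parent, labelled wild type, is a recombinant GS115 strain that expresses a lipase. Cells were taken in logarithmic phase from YPD medium, a rich medium with glucose, at 37 or 30 °C. The groups were G14_37 and G14_30 (evolved strain at 37 and at 30 °C) and Parent_37 and Parent_30 (parent at 37 and at 30 °C). Each group had 3 biological replicates, so RNA-seq gave 12 libraries.

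Values are FPKM, fragments scaled by the authors to gene length and by a factor for each library. This factor did not follow the fragments on genes. G14_37 replicate 3 and Parent_37 replicate 1 had 15448121 and 15231539 of these. In them 1 fragment on a gene of 1 kb equalled 0.051 and 0.0751 FPKM. FPKM values are relative to the other RNA of a library, so less mRNA of a gene and more mRNA of other genes cannot be told apart. Between 13428637 and 22047040 fragments lay on genes in each library, and the least covered factor gene had 358 fragments or more in every library. The lowest value of any transcript was between 2.49 and 5.21 FPKM in the Parent_37 libraries and between 0 and 0.799 FPKM in the other 9 libraries. G14_37 replicate 1 stood apart from the rest of its group. Over all transcripts its Pearson's r with replicates 2 and 3 was 0.88 and 0.863, against 0.959 between those replicates, and over the 35 factor genes it was 0.973 and 0.976, against 0.99.

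The factor genes were on the whole well expressed. Their mean FPKM over the 12 libraries ran between 16.4 and 8029, with a median of 164, against a median of 72.2 over all transcripts. In 23 of the 35 genes the mean lay in the top 25% of transcripts and in 5 in the bottom 25%. EF-1 alpha (PAS_FragB_0052, chromosome 1, 2752575 to 2753954, plus strand) had the highest level and the kinase of eIF2 alpha the lowest. Chromosome 3 carried 15 of the 35 genes and 1210 of the transcripts, chromosome 1 carried 6 of the genes and 1544 transcripts, chromosome 2 carried 7 and 1346, and chromosome 4 carried 7 and 980. A single pair were direct neighbours, eIF2B alpha and the mitochondrial elongation factor PAS_chr4_0033. Positions are those of the deposited table.

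Together the 35 genes took 1.59% ± 0.154 of the FPKM sum in G14_37, 2.08% ± 0.202 in G14_30, 1.17% ± 0.0958 in Parent_37 and 1.99% ± 0.0866 in Parent_30 (SD, n = 3 each). The Parent_37 libraries, at 1.21, 1.07 and 1.25%, lay below all other libraries. Without EF-1 alpha, which alone made up between 37.96 and 50.4% of the sum, the shares were 0.975% ± 0.107 in G14_37, 1.16% ± 0.114 in G14_30, 0.584% ± 0.0482 in Parent_37 and 1.02% ± 0.0671 in Parent_30. The mean was lowest in Parent_37 for 22 of the genes and highest in Parent_30 for 20. The same was not counted over all transcripts, so these counts cannot be read as particular to the factor genes.

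**Figure D1:**
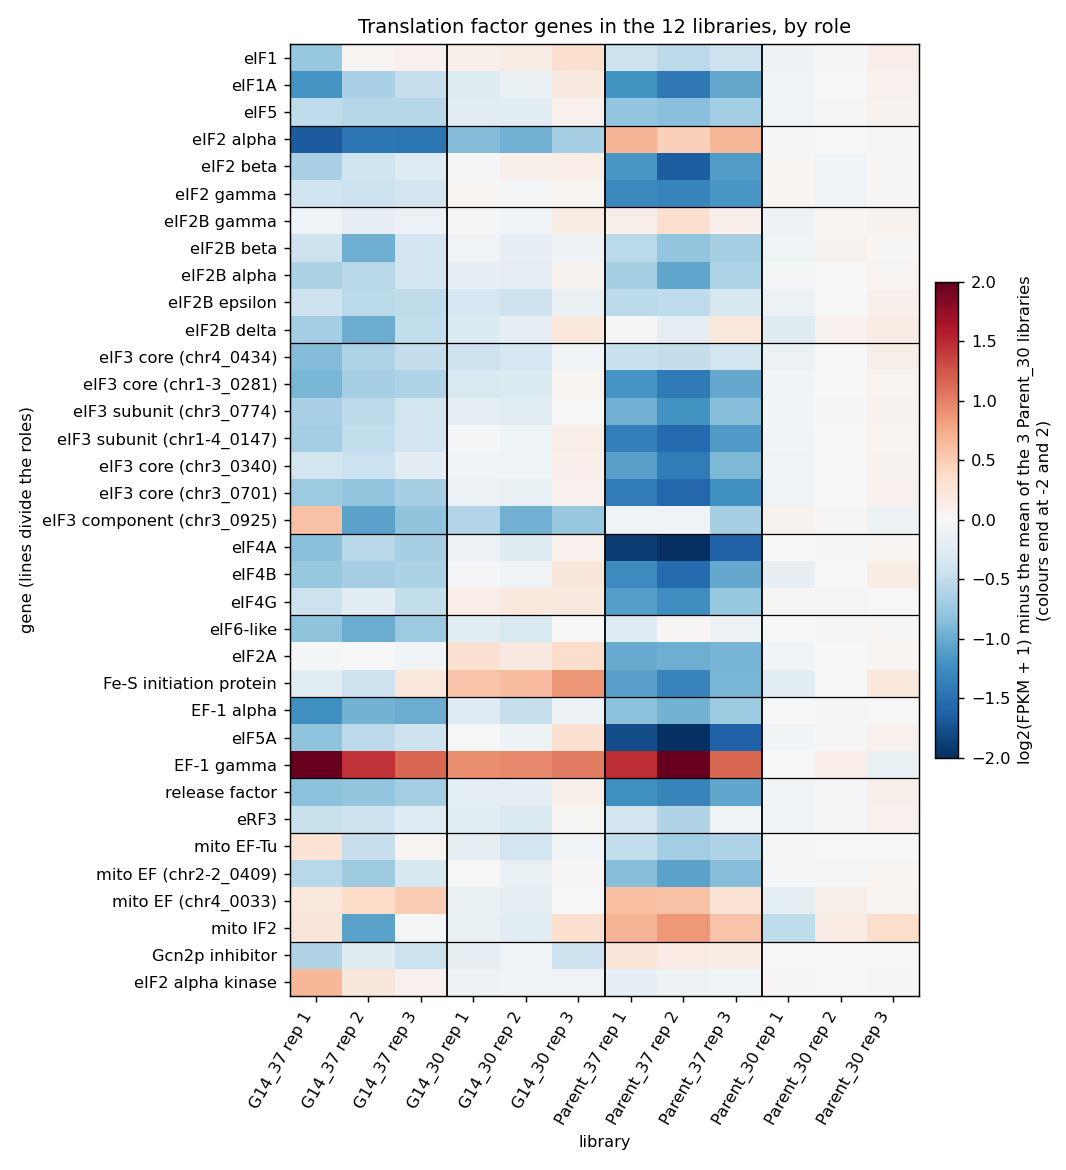
Each row is 1 of the 35 translation factor genes and each column 1 of the 12 libraries. Colour is log2(FPKM + 1) minus the mean of the 3 Parent_30 libraries, so blue is lower and red higher than in the parent at 30 °C. Most rows are darkest blue in the 3 Parent_37 libraries, paler blue in G14_37 and close to white in G14_30, while eIF2 alpha is red in Parent_37 and blue in both G14 groups, and EF-1 gamma is red in the G14 groups and in Parent_37.

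The first comparison asked how these mRNAs changed in the parent at the higher temperature. The paper describes very poor growth of the parent under heat, and more apoptosis and necrosis than in the evolved strain. Growth of the sequenced cultures was not compared here, so effects of temperature and of slower growth were not told apart. The same holds for every comparison with Parent_37 and for the difference in heat response. In Parent_37 vs. Parent_30, 24 of the 35 genes fell and 3 rose, by limma on log2(FPKM + 1) with 1 model of 4 group means. A gene is said to rise or fall, or is called, where its p, adjusted by Benjamini-Hochberg with all 5080 transcripts in the table, lay under 0.05. Of all transcripts, 27% fell and 32.9% rose. The median log2 fold change of the factor genes was -0.77, and that of all transcripts 0.04. A stricter call, which also asked for an absolute log2 fold change over 1, left 14 genes lower and 1 higher, against 7.56% lower and 14% higher among all transcripts. The count of 14 was 11 with equal FPKM sums in all libraries. It was 10 without Parent_37 replicate 2 and 15 after subtraction of each library's lowest value.

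The 3 genes of mRNA recruitment factors found by the rule fell together, and none of them encodes the cap-binding protein. eIF4A (PAS_chr3_0595, chromosome 3, 1126907 to 1128118, minus strand), the RNA helicase that unwinds the mRNA leader, had 318, 274 and 388 FPKM in Parent_37, against 1191, 1155 and 1218 FPKM in Parent_30. The groups lay far apart, and the log2 fold change was -1.87 ± 0.15 (SE, adjusted p = 2.5e-06, limma). eIF4B (PAS_chr3_1054), an RNA annealing cofactor of the helicase, had 123.8, 104 and 148 FPKM in Parent_37, against 270.3, 304 and 335 FPKM in Parent_30. The scaffold eIF4G (PAS_chr1-1_0053), which joins the cap-binding protein to the helicase, had 101.5, 91.8 and 129 FPKM in Parent_37, against 221, 214 and 219 FPKM in Parent_30. All 3 eIF4 genes thus fell, with log2 fold changes of -1.28 for eIF4B and -1.03 for eIF4G.

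Of the 7 genes of eIF3, the scaffold complex on the small ribosomal subunit, 6 fell. Their log2 fold changes ran between -1.40 and -0.43, and 5 passed the stricter call, PAS_chr3_0774 only just, at -1.0006. The deepest fall was that of the core subunit PAS_chr3_0701, with 74.5, 66.3 and 84.3 FPKM in Parent_37, against 187, 199.5 and 209.6 FPKM in Parent_30. The core subunit PAS_chr4_0434, the most abundant of the 7, had 236, 232 and 251 FPKM in Parent_37, against 298, 322 and 349 FPKM in Parent_30. Its change of -0.43 ± 0.13 (SE, adjusted p = 0.014, limma) was the smallest of the 6, and all Parent_37 libraries still lay below all Parent_30 libraries, but the call was lost with equal FPKM sums in all libraries and without Parent_30 replicate 3. The seventh gene, PAS_chr3_0925, is described as a component of unknown function, and its change of -0.28 did not pass the test.

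The subunits of eIF2 moved in opposite directions. eIF2 alpha (PAS_chr3_0077, chromosome 3, 170254 to 171165, plus strand), the subunit that the stress kinase phosphorylates, had 749, 652 and 743 FPKM in Parent_37, against 460.1, 466 and 477 FPKM in Parent_30. It rose, with a log2 fold change of 0.61 ± 0.11 (SE, adjusted p = 0.00076, limma). eIF2 beta (PAS_chr1-4_0135, chromosome 1, 1655916 to 1656767, plus strand), which binds eIF5 and eIF2B, had 169, 121 and 175 FPKM in Parent_37, against 390.6, 368 and 385.9 FPKM in Parent_30. eIF2 gamma (PAS_chr3_0839, chromosome 3, 1622532 to 1624106, plus strand), the subunit that holds GTP and the initiator tRNA, had 120.3, 117 and 131 FPKM in Parent_37, against 302, 283 and 299 FPKM in Parent_30. Both fell, with log2 fold changes of -1.31 for beta and -1.26 for gamma and no overlap between the groups.

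The ratio of alpha to beta followed from this. In Parent_37 the FPKM of eIF2 alpha was 4.42, 5.39 and 4.24 times that of eIF2 beta, against 1.18, 1.27 and 1.24 times in Parent_30. Beta and gamma kept closer to each other, with a ratio of beta to gamma of 1.41, 1.04 and 1.34 in Parent_37 and 1.29, 1.30 and 1.29 in Parent_30.

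**Figure D2:**
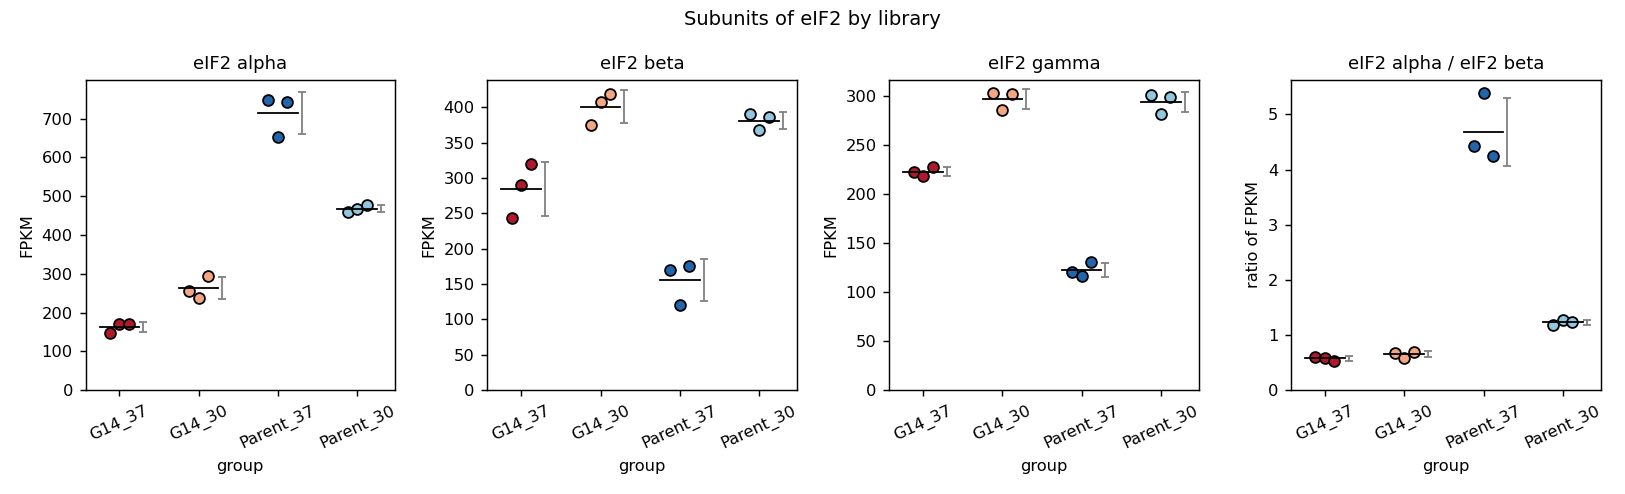
FPKM of the 3 subunits of eIF2 and, in the last panel, the ratio of eIF2 alpha to eIF2 beta, for the 3 libraries of each group (points), with the group mean (line) and its SD (grey bar beside it). In Parent_37 eIF2 alpha sits at 652 to 749 FPKM while eIF2 beta sits at 121 to 175 FPKM, and the ratio is 4.24 to 5.39 in Parent_37 and 0.531 to 0.700 in the G14 libraries.

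The exchange factor eIF2B moved less. Of its 5 genes, alpha (PAS_chr4_0032), beta (PAS_chr3_0564) and the catalytic epsilon subunit (PAS_chr3_0391) fell, with log2 fold changes of -0.77, -0.67 and -0.45. Gamma (PAS_chr4_0386) had 99.2, 115 and 98.6 FPKM in Parent_37, against 85.0, 94.3 and 95.7 FPKM in Parent_30. Delta (PAS_chr2-2_0275) had 63.8, 58.03 and 76.6 FPKM in Parent_37, against 55.6, 69.8 and 73.1 FPKM in Parent_30. Neither passed the test, and the delta groups overlapped. The genes of eIF2B alpha and gamma each overlap a neighbour on the other strand by 4 bases.

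Of the factors of start codon choice, eIF1A (PAS_chr2-1_0741) and eIF5 (PAS_chr4_0771), the GTPase-activating factor of eIF2, fell, with log2 fold changes of -1.21 and -0.77. The short eIF1 mRNA (PAS_chr4_0880), the most abundant of the 24 genes of initiation, had 1043, 982 and 1052 FPKM in Parent_37, against 1309, 1388 and 1539 FPKM in Parent_30. Its groups did not overlap, but the change of -0.46 ± 0.21 (SE, adjusted p = 0.076, limma) did not pass the test.

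Among the other initiation genes, eIF2A (PAS_chr2-2_0058), a factor distinct from eIF2 that can bind initiator tRNA, fell by 0.97 on the log2 scale in Parent_37. The essential iron-sulfur protein (PAS_chr2-1_0096), described as required for ribosome biogenesis and initiation, had 40.1, 33.9 and 45.3 FPKM in Parent_37, against 74.2, 85.5 and 99.8 FPKM in Parent_30. It fell by 1.10. The eIF6-like gene (PAS_chr1-3_0101), which encodes a constituent of precursors of the large ribosomal subunit, had 162, 199 and 182 FPKM in Parent_37, against 195, 189.8 and 199 FPKM in Parent_30. These groups overlapped, and the change of -0.11 did not pass the test.

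The 3 elongation factor genes found by the rule also parted. eIF5A (PAS_chr3_1048, chromosome 3, 2014485 to 2015038, minus strand), which helps peptide bond formation on the ribosome, had 932, 758 and 1040.3 FPKM in Parent_37, against 3068, 3139 and 3382 FPKM in Parent_30. The log2 fold change was -1.82 ± 0.18 (SE, adjusted p = 8.4e-06, limma), close to that of eIF4A. EF-1 alpha had 6300.5, 5805 and 6767 FPKM in Parent_37, against 11243, 11027 and 11206 FPKM in Parent_30, and fell by 0.83. The gene described as EF-1 gamma (PAS_chr3_1071, chromosome 3, 2064952 to 2065602, minus strand), a part of the nucleotide exchange complex of EF-1, is named by its description alone, which was not checked here. It had 149.8, 215 and 119.6 FPKM in Parent_37, against 53.1, 58.6 and 48.8 FPKM in Parent_30. It rose, with a log2 fold change of 1.54 ± 0.23 (SE, adjusted p = 0.00022, limma), the largest increase of the 35 genes.

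Another gene, PAS_chr4_0102, is described as holding an EF-1 gamma domain and lies outside the rule. Its length is 1230 bases, against 651 for PAS_chr3_1071, and which of the genes encodes EF-1 gamma was not tested. PAS_chr4_0102 was added after the table had been read. It averaged 476 FPKM in Parent_37 and 1422 FPKM in Parent_30, and its log2 fold change was -1.58, opposite in sign to that of PAS_chr3_1071. In G14 it averaged 894 FPKM in G14_37 and 1265 FPKM in G14_30 and also fell, with a log2 fold change of -0.51. The genes described as elongation factors 3 (PAS_chr4_0038) and 2 (PAS_chr2-1_0124), added in the same way, had log2 fold changes of -0.94 and -0.90 in the parent, and both passed the test. In G14 their changes were -0.24 and 0.33 and did not pass it. The difference in heat response was called for both, at 0.70 for elongation factor 3 and 1.22 for elongation factor 2. Group means ran between 553 and 1053 FPKM for PAS_chr4_0038, but only between 30.9 and 72.5 FPKM for PAS_chr2-1_0124. Both genes are named by their descriptions alone, which were not checked here.

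**Figure D3:**
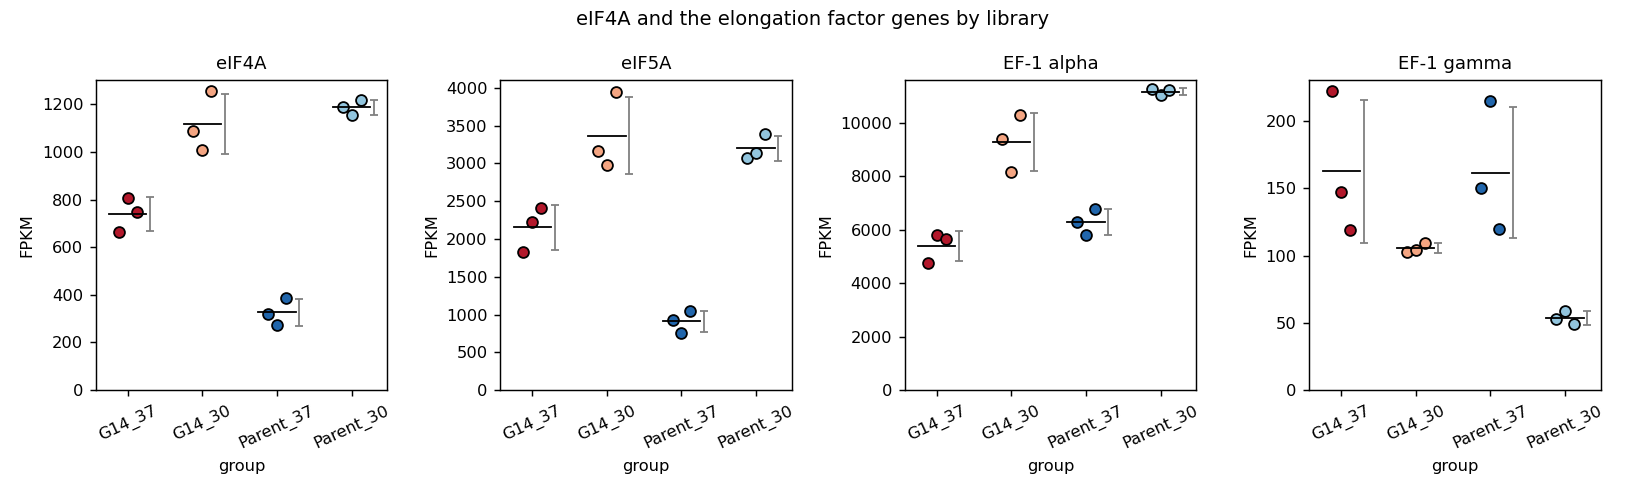
FPKM of eIF4A and of the 3 cytosolic elongation factor genes in the 3 libraries of each group (points), with the group mean (line) and its SD (grey bar beside it). eIF4A and eIF5A are lowest in Parent_37, EF-1 alpha is lower at 37 than at 30 °C in both strains, and EF-1 gamma is lowest in Parent_30.

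Of the termination genes, the polypeptide release factor (PAS_chr4_0727) had 96.8, 90.1 and 109.7 FPKM in Parent_37, against 216, 223 and 243 FPKM in Parent_30, with a log2 fold change of -1.197. The gene of eRF3 (PAS_chr3_0398), the GTPase of termination, had 132, 112 and 161 FPKM in Parent_37, against 161, 168 and 181 FPKM in Parent_30. Its change of -0.34 ± 0.14 (SE, adjusted p = 0.047, limma) was close to the threshold and was lost in 10 of the alternative analyses.

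The mitochondrial factors had no common direction. Elongation factor Tu (PAS_chr3_0562), which delivers aminoacyl tRNA in mitochondria, had 346, 303 and 318 FPKM in Parent_37, against 484, 491 and 493 FPKM in Parent_30, and fell by 0.60, a call that was lost with equal FPKM sums (-0.48). The elongation factor PAS_chr2-2_0409 fell by 0.92. The elongation factor PAS_chr4_0033 had 42.8, 42.6 and 34.1 FPKM in Parent_37, against 24.7, 30.4 and 29.1 FPKM in Parent_30, and rose by 0.49. Mitochondrial initiation factor 2 (PAS_chr2-1_0244) had 28.4, 32.3 and 26.2 FPKM in Parent_37, against 11.9, 19.5 and 22.4 FPKM in Parent_30, but its change of 0.70 ± 0.32 (SE, adjusted p = 0.082, limma) did not pass the test. The 2 regulators, the eIF2 alpha kinase (PAS_chr3_0850) and the inhibitor of Gcn2p (PAS_chr2-1_0265), had changes of -0.12 and 0.19, and neither passed the test. When the lowest value of each library was subtracted first, which takes most from Parent_37, the change of the kinase was -0.47 and was called (adjusted p = 0.017, limma).

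The second comparison asked the same of the evolved strain. In G14_37 vs. G14_30, 23 of the 35 genes fell and 2 rose, against 13.2% lower and 12.1% higher among all transcripts. The median log2 fold change was -0.44 for the factor genes and 0.0032 for all transcripts. No factor gene passed the stricter call of limma in either direction, nor did any when an unadjusted p under 0.05 was taken or the fit was made by voom, but without G14_37 replicate 3 the iron-sulfur protein did (-1.02). Of all transcripts 1.56% were lower and 2.22% higher by the stricter call. The calls depended on the fit. With the 2 groups fitted alone by limma none of the 35 genes was called (23 lower and 3 higher at an unadjusted p under 0.05), without G14_30 replicate 3 the count was 8 lower and 1 higher, and with equal sums of FPKM in all libraries it was 8 lower and 3 higher.

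All 3 eIF4 genes fell again, but by less. eIF4A had 665, 805 and 750.2 FPKM in G14_37, against 1089, 1007 and 1255 FPKM in G14_30, a log2 fold change of -0.59 ± 0.15 (SE, adjusted p = 0.017, limma). eIF5A had 1827, 2220.2 and 2409 FPKM in G14_37, against 3169, 2981 and 3946 FPKM in G14_30, a log2 fold change of -0.64. In both genes all G14_37 libraries lay below all G14_30 libraries. EF-1 alpha, with 4743, 5793 and 5636 FPKM in G14_37, against 9382, 8145 and 10294 FPKM in G14_30, fell by 0.78, which was among the largest decreases. The iron-sulfur protein had the largest, with 72.9, 64.2 and 99.7 FPKM in G14_37, against 128, 133 and 159.9 FPKM in G14_30 and a log2 fold change of -0.84.

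The subunits of eIF2 moved together in this strain. eIF2 alpha had 147.2, 171 and 169.8 FPKM in G14_37, against 254, 239 and 294 FPKM in G14_30, and fell by 0.68 (SE 0.11, adjusted p = 0.0042, limma). eIF2 beta had 243.7, 290.2 and 319.9 FPKM in G14_37, against 375, 408 and 419.6 FPKM in G14_30, and fell by 0.50, a call that 8 of the alternatives did not keep. eIF2 gamma had 223, 219 and 228 FPKM in G14_37, against 304, 286 and 303 FPKM in G14_30, and fell by 0.41. The ratio of alpha to beta was 0.604, 0.589 and 0.531 in G14_37 and 0.679, 0.585 and 0.700 in G14_30, and these values overlapped.

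Of the 7 eIF3 genes 5 fell in G14, by 0.67 at most. The calls of PAS_chr4_0434 (adjusted p = 0.0499, limma) and PAS_chr3_0774 (adjusted p = 0.036, limma) were lost in 15 and 12 of the alternatives. A further 2 genes fell in G14 whose change in the parent had not passed the test. The eIF6-like gene had 111, 97.2 and 117 FPKM in G14_37, against 168, 157 and 194 FPKM in G14_30, a log2 fold change of -0.67 ± 0.11 (SE, adjusted p = 0.0048, limma). eIF2B delta had 40.7, 32.7 and 46.5 FPKM in G14_37, against 54.0, 57.5 and 76.2 FPKM in G14_30, a log2 fold change of -0.63. All G14_37 libraries of both genes lay below all G14_30 libraries. The start codon factor eIF1 had 831, 1461 and 1499 FPKM in G14_37, against 1516, 1557 and 1758 FPKM in G14_30. Replicate 1 lay well below the others of its group, and the change did not pass the test.

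The genes that rose in G14 were the mitochondrial elongation factor PAS_chr4_0033 and the eIF2 alpha kinase. PAS_chr4_0033 had 32.6, 36.6 and 40.3 FPKM in G14_37, against 25.4, 24.2 and 27.7 FPKM in G14_30, and rose by 0.48. The kinase had 25.6, 18.7 and 16.9 FPKM in G14_37, against 14.6, 15.0 and 14.9 FPKM in G14_30, a log2 fold change of 0.41 ± 0.13 (SE, adjusted p = 0.043, limma). The highest of these values came from G14_37 replicate 1, and without it the change was 0.24 and was not called. In all, 13 of the alternatives lost this call. EF-1 gamma had 222, 147.1 and 119 FPKM in G14_37, against 103, 104 and 109.7 FPKM in G14_30, and its change of 0.57 did not pass the test (adjusted p = 0.092, limma). The eIF3 component PAS_chr3_0925 had 65.9, 20.2 and 24.6 FPKM in G14_37, against 28.8, 21.8 and 25.5 FPKM in G14_30, so replicate 1 alone lay apart.

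Few of the genes were called between the strains at 30 °C. In G14_30 vs. Parent_30, 3 genes were higher and 2 lower, and 30 of the 35 were not called. Of all transcripts 14.9% were higher and 13.7% lower, and the median log2 fold change was -0.09 for the factor genes and -0.03 for all transcripts. The stricter call was passed by none of the 35 genes in limma on log2(FPKM + 1), also at an unadjusted p under 0.05. EF-1 gamma passed it, higher, in voom, with equal FPKM sums (1.16) and without Parent_30 replicate 2 (1.04). Among all transcripts 2.87% were higher and 4.49% lower by that call. eIF2 alpha was lower in G14_30, with a log2 fold change of -0.84 ± 0.11 (SE, adjusted p = 0.00025, limma) and no overlap with the Parent_30 libraries. eIF2B epsilon, with 65.8, 62.5 and 74.8 FPKM in G14_30, against 76.4, 84.1 and 89.8 FPKM in Parent_30, was lower by 0.30 and lost its call in 8 of the alternative analyses.

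EF-1 gamma was higher in G14_30, with 103, 104 and 109.7 FPKM, against 53.1, 58.6 and 48.8 FPKM in Parent_30, a log2 fold change of 0.97 ± 0.23 (SE, adjusted p = 0.01, limma). All G14_30 libraries lay well above all Parent_30 libraries. The iron-sulfur protein was higher by 0.69 and eIF2A by 0.28. With equal FPKM sums in all libraries the split was 4 higher and 1 lower, and without G14_30 replicate 3 it was 1 higher and 2 lower. Both eIF2 alpha and EF-1 gamma kept their call in every alternative run.

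At 37 °C, in G14_37 vs. Parent_37, 17 of the 35 genes were higher and 6 lower, against 29.4% higher and 28.1% lower among all transcripts. The medians of the log2 fold changes were 0.40 for the factor genes and 0.05 for all transcripts. With equal FPKM sums in all libraries 21 genes were higher and 3 lower. By the stricter call 2 genes were higher, eIF5A at 1.24 and eIF4A at 1.19, and 1 was lower, eIF2 alpha, against 7.42% higher and 14.3% lower among all transcripts. That count was 8 higher with equal FPKM sums and 4 higher after subtraction of each library's lowest value.

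eIF2 alpha had the largest difference of the 35 genes, with 147.2, 171 and 169.8 FPKM in G14_37, against 749, 652 and 743 FPKM in Parent_37. The log2 fold change was -2.13 ± 0.11 (SE, adjusted p = 5.9e-08, limma), and the G14_37 mean was 0.228 times the Parent_37 mean. The other subunits differed the other way, eIF2 beta by 0.88 and eIF2 gamma by 0.86. The higher genes further included all 3 eIF4 genes, 5 of the 7 eIF3 genes, eIF2A at 0.94, the iron-sulfur protein at 0.96, the release factor and 2 mitochondrial elongation factors. None of the 5 eIF2B genes was higher.

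The lower genes, besides eIF2 alpha, were the eIF6-like gene at -0.74, eIF2B delta at -0.72, eIF2B gamma at -0.31, the Gcn2p inhibitor and mitochondrial initiation factor 2. The inhibitor of Gcn2p had 26.2, 33.6 and 29.6 FPKM in G14_37, against 47.7, 44.97 and 44.7 FPKM in Parent_37, a log2 fold change of -0.61 ± 0.11 (SE, adjusted p = 0.00074, limma). The kinase that it acts on, the eIF2 alpha kinase, differed the other way, with 25.6, 18.7 and 16.9 FPKM in G14_37, against 13.9, 14.6 and 14.8 FPKM in Parent_37. The kinase had a log2 fold change of 0.45, which was 0.28 when G14_37 replicate 1 was left out and 0.82 after subtraction of the lowest values, and all 3 were called. With the 2 compared groups fitted alone the call of the kinase was lost. Mitochondrial initiation factor 2 had 20.8, 7.72 and 17.1 FPKM in G14_37, against 28.4, 32.3 and 26.2 FPKM in Parent_37. Its call (log2 fold change -0.98, adjusted p = 0.022, limma) was lost in 5 of the alternatives: with equal FPKM sums, without G14_37 replicate 2, without Parent_37 replicate 1 or 2, and after subtraction of the lowest values.

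The evolved strain under heat was also set against the parent without heat. In G14_37 vs. Parent_30, 25 of the 35 genes were lower and 2 higher, against 26% lower and 24.3% higher among all transcripts, with medians of -0.51 and -0.01. This comparison depended most on the scaling. With equal FPKM sums in all libraries, which moved the median of all transcripts to 0.39, 5 genes were lower and 5 higher. Relative to that median the factor genes, with a median of -0.10, still lay below.

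A few genes stood out here. EF-1 alpha was lower by 1.05 (SE 0.18, adjusted p = 0.00066, limma), with 4743 to 5793 FPKM in G14_37, against 11027 to 11243 FPKM in Parent_30. eIF2 alpha was lower by 1.52 and the eIF6-like gene by 0.84, and EF-1 gamma was higher by 1.54. The ordinary call of these 4 genes was kept in every alternative run. The stricter call was passed by EF-1 gamma (higher) and by EF-1 alpha and eIF2 alpha (lower), against 5.91% higher and 7.01% lower among all transcripts. EF-1 alpha lost it with equal FPKM sums (-0.64) and without G14_37 replicate 1 (-0.97). eIF2A, at -0.03, was not called and lay at 169, 170.1 and 165 FPKM in G14_37 and 166, 173 and 176 FPKM in Parent_30.

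The difference in heat response, G14_37 vs. G14_30 minus Parent_37 vs. Parent_30, tested whether the strains responded unequally. It was called for 16 of the 35 genes. In 13 the difference was above 0 and in 3 below 0, against 14.6% and 20.7% of all transcripts. The medians were 0.44 for the factor genes and 0.0045 for all transcripts, and with equal FPKM sums the split was 15 and 1. A difference over 1 in size was called above 0 for 2 genes, eIF4A and eIF5A, and below 0 for 1, eIF2 alpha, against 4.31% and 11.1% of all transcripts. EF-1 gamma joined those below 0 in voom and without Parent_37 replicate 3, and without G14_37 replicate 1 it did so with mitochondrial initiation factor 2. In 29 of the 35 genes the G14 change was smaller in size than that of the parent, 20 genes fell in both strains, and 1 gene, PAS_chr4_0033, rose in both. These were not counted over all transcripts, whose changes were also narrower in G14. Their quartiles were -0.27 and 0.28 in G14 and -0.43 and 0.60 in the parent, so a smaller change in G14 is not particular to the factor genes.

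The widest positive differences were those of eIF4A, with changes of -0.59 in G14 and -1.87 in the parent (difference 1.28 ± 0.21, SE, adjusted p = 0.001, limma), and eIF5A, with changes of -0.64 in G14 and -1.82 in the parent (difference 1.18). Of the eIF3 genes 5 of 7 had a called difference, between 0.62 and 0.85, and eIF2 beta and gamma had differences of 0.81 and 0.85. No eIF2B gene and no gene of start codon choice had a called difference. EF-1 alpha fell by 0.78 in G14 and by 0.83 in the parent, and its difference of 0.05 ± 0.25 (SE, adjusted p = 0.9, limma) was not called.

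eIF2 alpha had the widest negative difference, -1.29 ± 0.16 (SE, adjusted p = 0.00019, limma). It was the 1 gene called in opposite directions, with a change of -0.68 in G14 and of 0.61 in the parent. The eIF6-like gene differed by -0.56, and this call was lost with equal FPKM sums. EF-1 gamma differed by -0.97 (adjusted p = 0.042, limma), a call that 11 of the alternatives did not keep. At 37 °C its levels overlapped, with 222, 147.1 and 119 FPKM in G14_37 and 149.8, 215 and 119.6 FPKM in Parent_37, and the log2 fold change of G14_37 vs. Parent_37 was 0.0041 ± 0.23 (SE).

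**Figure D4:**
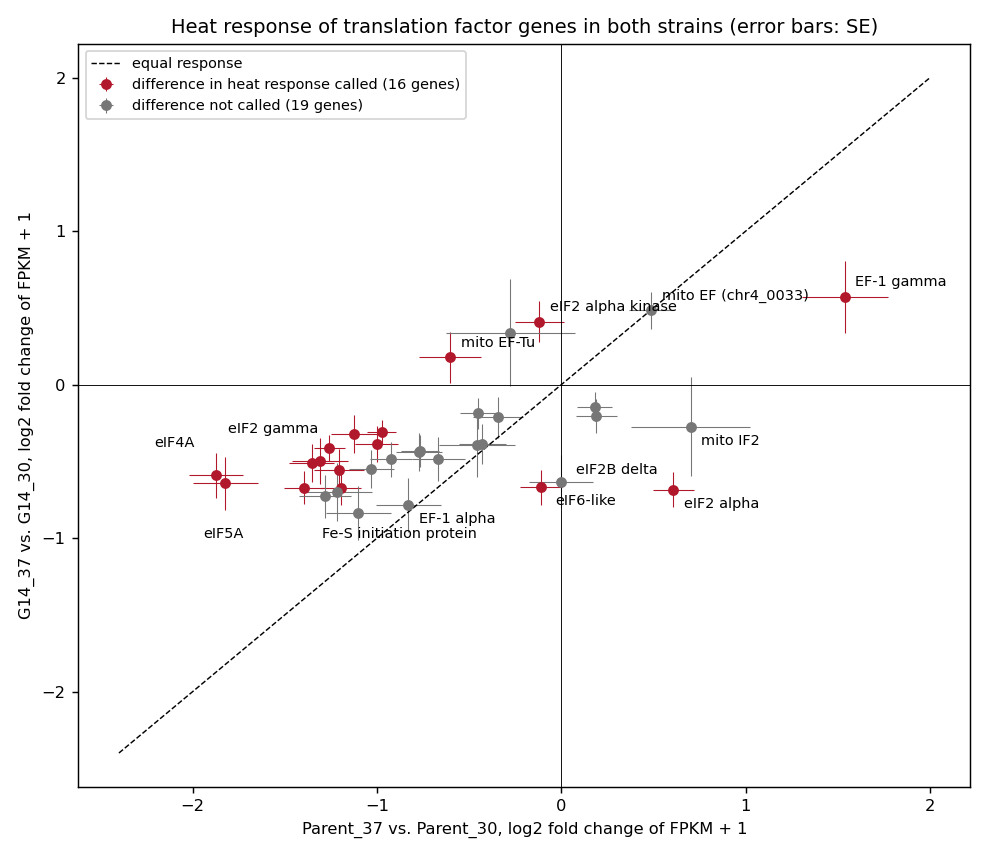
Log2 fold change on heat in the parent (x axis) and in G14 (y axis) for the 35 genes, with SE bars. Red points are the 16 genes whose difference in heat response was called, grey points the other 19, and the dashed line marks equal responses. Most genes lie left of 0 and above the dashed line, eIF4A and eIF5A at the far left, and eIF2 alpha sits alone at 0.61 in the parent and -0.68 in G14.

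The cytosolic ribosomal protein genes, whose products the factors act on, are given for comparison. The 87 genes of that list had median log2 fold changes of -2.33 in Parent_37 vs. Parent_30 (85 lower), -0.86 in G14_37 vs. G14_30 (80 lower), -0.11 in G14_30 vs. Parent_30 (1 lower) and 1.37 in G14_37 vs. Parent_37 (79 higher, 1 lower). The medians of the factor genes in the same comparisons were -0.77, -0.44, -0.09 and 0.40, of the same sign and smaller in size. Per library, the median log2 difference of the factor genes from the Parent_30 mean was -0.59, -0.54 and -0.38 in G14_37 and -0.78, -0.94 and -0.68 in Parent_37. For the ribosomal protein list it was -1.34, -0.84 and -0.72 in G14_37 and -2.30, -2.75 and -2.06 in Parent_37. The library with the lowest median of factor genes in each 37 °C group was also the one with the lowest median of ribosomal protein genes.

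A second list held 18 other genes of translation control. In Parent_37 vs. Parent_30, 10 of them fell and 5 rose, against 27% and 32.9% of all transcripts. In G14_37 vs. Parent_37, 11 were higher and 5 lower, against 29.4% and 28.1% of all transcripts. The difference in heat response was called above 0 for 9 and below 0 for 3, against 14.6% and 20.7% of all transcripts. Poly(A)-binding protein (PAS_chr2-1_0097), which joins the mRNA tail to eIF4G, fell by 0.81 in G14 and by 1.59 in the parent. A further gene described as poly(A)-binding protein, PAS_chr1-4_0283, rose by 0.83 in the parent. In G14 the change of PAS_chr1-4_0283 was 0.40 and did not pass the test. The positive regulators of Gcn2p parted in the parent, with changes of -0.62 (PAS_chr3_1044) and 0.31 (PAS_chr4_0327). The list was drawn by words in descriptions and so also holds a thioredoxin peroxidase, a cyclin and a mitochondrial activator of 1 mRNA, which were 3 of the 5 genes that rose. Among the genes that fell in the parent it likewise holds the beta1 and alpha subunits of the nascent polypeptide-associated complex (-2.24 and -2.16). Ribosome-associated chaperones and a peptidyl-prolyl isomerase also fell. The counts in both directions are thus not those of translation control genes alone.

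**Figure D5:**
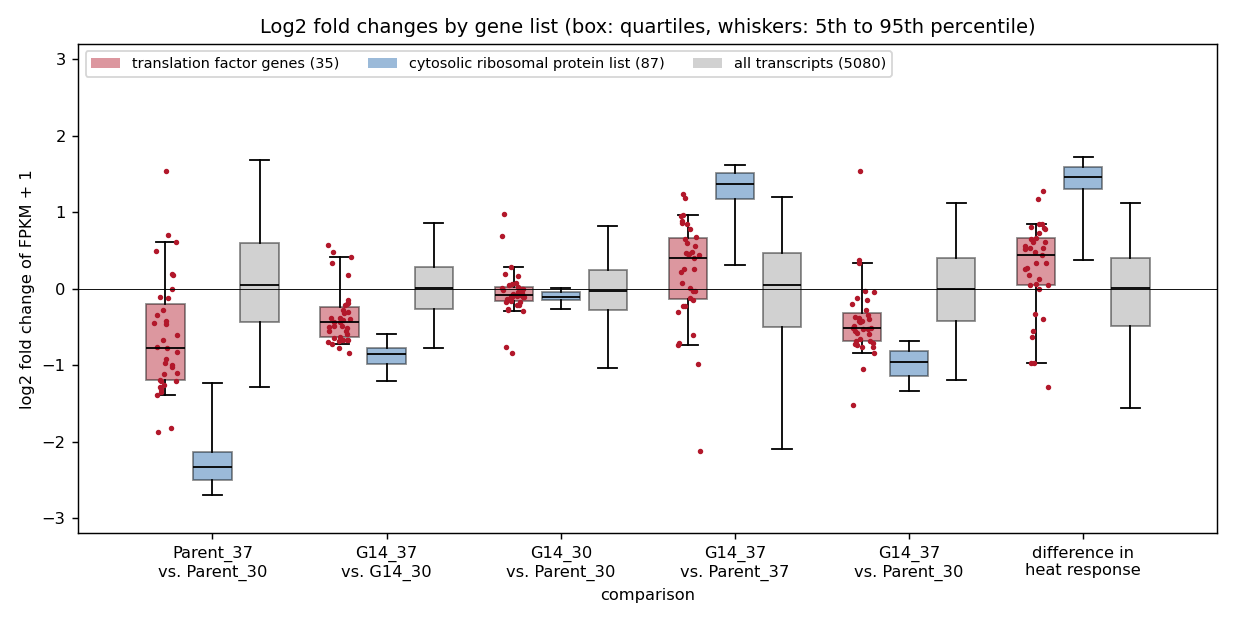
Log2 fold changes in the 5 comparisons and in the difference in heat response, for the 35 translation factor genes (red, each gene a point), the 87 genes of the ribosomal protein list (blue) and all 5080 transcripts (grey). Boxes give the quartiles with the median as a line, and whiskers the 5th to the 95th percentile. The red median lies between the blue and the grey one in each of the 5 comparisons and in the difference, and all 3 are close to 0 in G14_30 vs. Parent_30.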

How the data were processed

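RNA was sequenced from 12 libraries of *K. phaffii*, 3 biological replicates each of G14_37, G14_30, Parent_37 and Parent_30. The libraries were prepared with NEBNext Ultra and read on a NovaSeq. The submitters' processing notes name CASAVA, HISAT2 2.0.5 and featureCounts 1.5.0-p3, and gene models were those of the PICHIAGENOME database. The authors deposited FPKM values for 5080 transcripts (5040 annotated genes and 40 assembled outside the annotation) with gene lengths, positions and descriptions. A list of positions without measurements was not used. Counts were not used here as deposited, since the table holds FPKM. FPKM times gene length gave whole multiples of 1 step per library for 100.0% of the transcripts (tolerance 0.05 fragments), so fragments were recovered. They came to 13428637 to 22047040 per library (median 15412798), and 1 fragment on a gene of 1 kb equals 0.0417 to 0.0822 FPKM. Whether counting used strand is not given in the sources used here.

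Values were taken as log2(FPKM + 1) for transcripts averaging at least 1 FPKM, a filter that removed none. One mean per group was fitted jointly for the 12 libraries (8 residual degrees of freedom) on all 5080 transcripts, using limma 3.58.1 (trend = TRUE) under R 4.3.3. Fold changes of low genes are understated on this scale. Calls required an adjusted p (Benjamini-Hochberg, whole table) under 0.05, and the stricter call also an absolute log2 fold change over 1. The fit was also run on simulated counts with planted changes and the same dispersion for every gene and library. Those counts held no outlying library, so that run cannot show how the fit does on these data. Shares, ratios and levels came from Python 3.11.15, numpy 2.4.6 and pandas 2.3.3.

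The 35 genes, the 87 ribosomal protein genes and the 18 genes of translation control were picked by words in the descriptions, with earlier results of these data known. Of the 87, 3 are not ribosomal proteins proper by their descriptions. Named with values per library were the genes of highest and lowest mean in each role, the 2 largest called increases and decreases of each comparison and those past the stricter call, and others were added after their values were seen. Lists are given by counts and medians only, without a test of the list.

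The fit was repeated with 0.1 as pseudocount, without the filter, with a filter at a mean of 10 FPKM, after scaling by median ratios, with the same FPKM sum in each library (TPM), by voom on the recovered fragments, on the 2 compared groups alone, with the replicate number as a block and without each library in turn. A fit after each library's lowest value was subtracted was chosen once the data were known. Promoter and protein sequences were not used.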

Additional observations from a re-analysis of the deposited data

Results flagged for a closer look

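The strains' responses to heat differed, by the contrast G14_37 vs. G14_30 minus Parent_37 vs. Parent_30 in limma, for 16 of the 35 genes (3 libraries per group). Temperature and the growth of the cultures were not told apart in this contrast. Of the groups of 3 libraries none was tested for single outlying samples. The values are differences of log2 fold changes, and a positive value means that the gene fell less, or rose more, in G14 than in the parent.

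The differences below 0 were -1.29 for eIF2 alpha, -0.97 for EF-1 gamma and -0.56 for the eIF6-like gene. Above 0 they were largest for eIF4A, at 1.28, and for eIF5A, at 1.18. In the subunits of eIF2 they were 0.81 for beta and 0.85 for gamma. In eIF3 they were 0.85 for PAS_chr1-4_0147, 0.80 for PAS_chr3_0340, 0.73 for PAS_chr3_0701, 0.65 for PAS_chr1-3_0281 and 0.62 for PAS_chr3_0774. The remaining differences were 0.78 for mitochondrial elongation factor Tu, 0.67 for eIF2A, 0.53 for the release factor and 0.53 for the eIF2 alpha kinase. Of these 16 calls, those of EF-1 gamma (adjusted p = 0.042, limma) and of the kinase (adjusted p = 0.048, limma) lay closest to the threshold, and each was lost in 11 of the alternatives. The calls of elongation factor Tu, of the release factor and of PAS_chr1-3_0281 were lost in 6, 5 and 4, and that of the eIF6-like gene with equal FPKM sums. The kinase's difference was 0.36 without G14_37 replicate 1.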

How the results depend on the processing

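The counts of called factor genes were unchanged under a pseudocount of 0.1. The fits without the filter and with median-of-ratios scaling also gave the same counts, but they could not have moved them. The filter had removed no transcript, and median-of-ratios scaling left the medians and counts over all transcripts as they were. Equal FPKM sums (TPM) moved the median log2 fold change of all transcripts to between 0.10 and 0.39. They gave 5 genes higher in Parent_37 vs. Parent_30, 8 lower in G14_37 vs. G14_30, 1 lower in G14_30 vs. Parent_30, 3 lower in G14_37 vs. Parent_37, 5 higher and 5 lower in G14_37 vs. Parent_30 and 1 below 0 in the difference in heat response. In G14_37 vs. Parent_30 they turned eIF2 gamma (PAS_chr3_0839) to 0.0145, eIF4G (PAS_chr1-1_0053) to 0.0315, eRF3 (PAS_chr3_0398) to 0.0363 and the eIF3 gene PAS_chr3_0340 to 0.0689, none of them called. The 2 groups alone gave 5 higher in Parent_37 vs. Parent_30, 0 higher and 0 lower in G14_37 vs. G14_30 and 1 higher in G14_37 vs. Parent_30. Voom gave 1 lower in G14_30 vs. Parent_30, and subtraction of the lowest value 1 higher in G14_37 vs. G14_30. The cause of these moves was not tested.

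Leaving out 1 library gave 3 to 4 higher and 22 to 25 lower in Parent_37 vs. Parent_30, 0 to 3 higher and 8 to 23 lower in G14_37 vs. G14_30, 1 to 3 higher and 1 to 3 lower in G14_30 vs. Parent_30, 16 to 19 higher and 4 to 7 lower in G14_37 vs. Parent_37, 1 to 2 higher and 20 to 25 lower in G14_37 vs. Parent_30 and 9 to 17 above and 2 to 4 below 0 in the difference. Over single genes, the called values had 2253 alternatives, of which 2044 kept direction and call, 205 lost the call and 4 changed sign. Those that kept it include the fits without the filter and with median-of-ratios scaling, which in effect repeated the main fit. In a comparison of 2 groups, the log2 fold change could not move when a library of another group was left out. Nor could it move with the 2 groups fitted alone or with the replicate block. Such alternatives could test the call but not the direction. Values that were not called had 1622, of which 50 gained the call and 93 changed sign.

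No label ties the same replicate number to a shared batch, so the libraries were not treated as paired. The deviations of same-numbered libraries from their group means had r between -0.216 and 0.671 in 18 pairs (median 0.0865, and -0.0455 for other numbers), 8 of them over 0.1. The highest were G14_30 with Parent_30, at 0.612 for replicate 1 and 0.671 for replicate 3. A library correlated best with its own number in 23 of 36 cases, where 12 would be its equal share, which is a hint of pairing from the data and not from the design. With the replicate block 1 gene was higher and 24 lower in G14_37 vs. G14_30, and the other counts moved by 1 at most. Replicates of a group differed by more than sampling noise, with chi-square per degree of freedom of 17.4 or more.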
